A study of Bos taurus with 8 samples.

Results

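The 58 cell cycle and DNA replication genes were a named list of cyclins and their kinases, kinase inhibitors, replication factors, enzymes of deoxynucleotide supply and mitotic proteins, read here in bovine rumen papillae. A gene was taken as measured where the RefSeq accession of a probe that is not a control mapped to its symbol in the bovine RefSeq table, and the brightest probe stood for a gene with more than 1. By this rule 37 of the 58 genes were measured, out of 7788 gene symbols named on an array of 21475 probes. The rule used no expression value other than to pick the brightest probe. Of these 37 genes, 36 gave a signal well above background on every array, and CCNE1 did so on 6 of the 8.

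Dividing cells pass a G1 checkpoint under cyclin D and cyclin E kinases, load the MCM helicase at replication origins, copy their DNA once in S phase and then enter mitosis under CDK1 and cyclin B. The spindle checkpoint delays the separation of the chromosomes until all are attached, and the anaphase-promoting complex with CDC20 then marks securin and cyclin B for destruction. The rumen wall is lined by a stratified squamous epithelium in which cells divide in the basal layers and keratinise as they move towards the lumen, and its papillae are known to grow and to renew faster when more fermentable feed is given.

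Rumen papillae had been taken from 4 ruminally cannulated lactating Holstein cows in a crossover of 2 diets and 2 periods. All 4 cows were fed both diets, the LC diet with 40% of concentrate feed and the HC diet with 70%, and were sampled on day 21 of each period, 4 h after the morning feeding. Cows 1 and 2 received LC in period 1 and HC in period 2, and cows 3 and 4 received the diets in the other order. Each group therefore held 4 arrays from the same 4 cows, the cow is the replicate, and there was no group without concentrate feed. The comparison of interest was how the papillae of the HC group differed from those of the LC group.

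The share of probes well above background was 76.9% to 81.2% per array, lowest for LC cow 3, and no spot was saturated. The 4 arrays of a period shared a slide, so period and slide cannot be told apart. The columns of the deposited normalized table named for cows 1 and 2 followed the scanner values of the other of these 2 cows on both diets, with a correlation above 0.999 across 16030 probes, so the names of cow 1 and cow 2 are uncertain in what follows. Both cows had the same diet in the same period, and no value by diet, period or pair of cows depends on which name is right. Keratins of squamous epithelium (KRT14, KRT15 and KRT6A) were well above background on all 8 arrays, whereas the probe of TP63, a transcription factor of basal squamous cells, was well above background on none. Markers of stroma and of leukocytes were present as well, so the papillae were a mixture of cells. In such bulk tissue fewer dividing cells and less RNA per cell cannot be told apart.

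Of the 21 genes with no matched probe, CCND1 and CCND2 (D cyclins) and CDK6 (their kinase) belong to G1, and CDKN1B (p27) and CDKN3 (a phosphatase of cyclin-dependent kinases) to the inhibitors. Another 6 act at origins and forks, namely CDT1 (a licensing factor), MCM2, MCM6 and MCM7 (helicase subunits), GINS2 (a helicase cofactor) and RFC5 (a subunit of the clamp loader). RRM2 is the small subunit of ribonucleotide reductase. The remaining 9 were CCNA2 and CCNB1 (A and B cyclins), CKS1B (a cyclin-dependent kinase subunit), AURKB (the kinase of the chromosomal passenger complex), MAD2L1 and TTK (spindle checkpoint), TOP2A (topoisomerase II), KIF11 (a spindle motor) and MKI67 (the proliferation antigen Ki-67). These genes are not analysed here.

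None of the 37 genes passed the call for diet, a fold of at least 1.5 with an unadjusted P under 0.05 in limma, beside 0.922% of all probes. The log2 signal averaged over the 37 genes was 9.13 ± 0.20 on LC and 9.19 ± 0.18 on HC (mean ± SD over 4 arrays each). By cow from 1 to 4, the mean was 9.27, 9.16, 8.83 and 9.25 on LC and 9.44, 9.20, 9.02 and 9.12 on HC. Cows 1 to 3 were higher on HC, by 0.16, 0.04 and 0.18, and cow 4 was lower by a difference of -0.13, so that the groups overlapped and the mean difference of 0.06 was smaller than its SD over the cows of 0.14. Within period 1 the HC arrays were lower than the LC arrays, with a difference of -0.15, and within period 2 they were higher by 0.28, but each of these differences compares different cows.

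**Figure D1:**
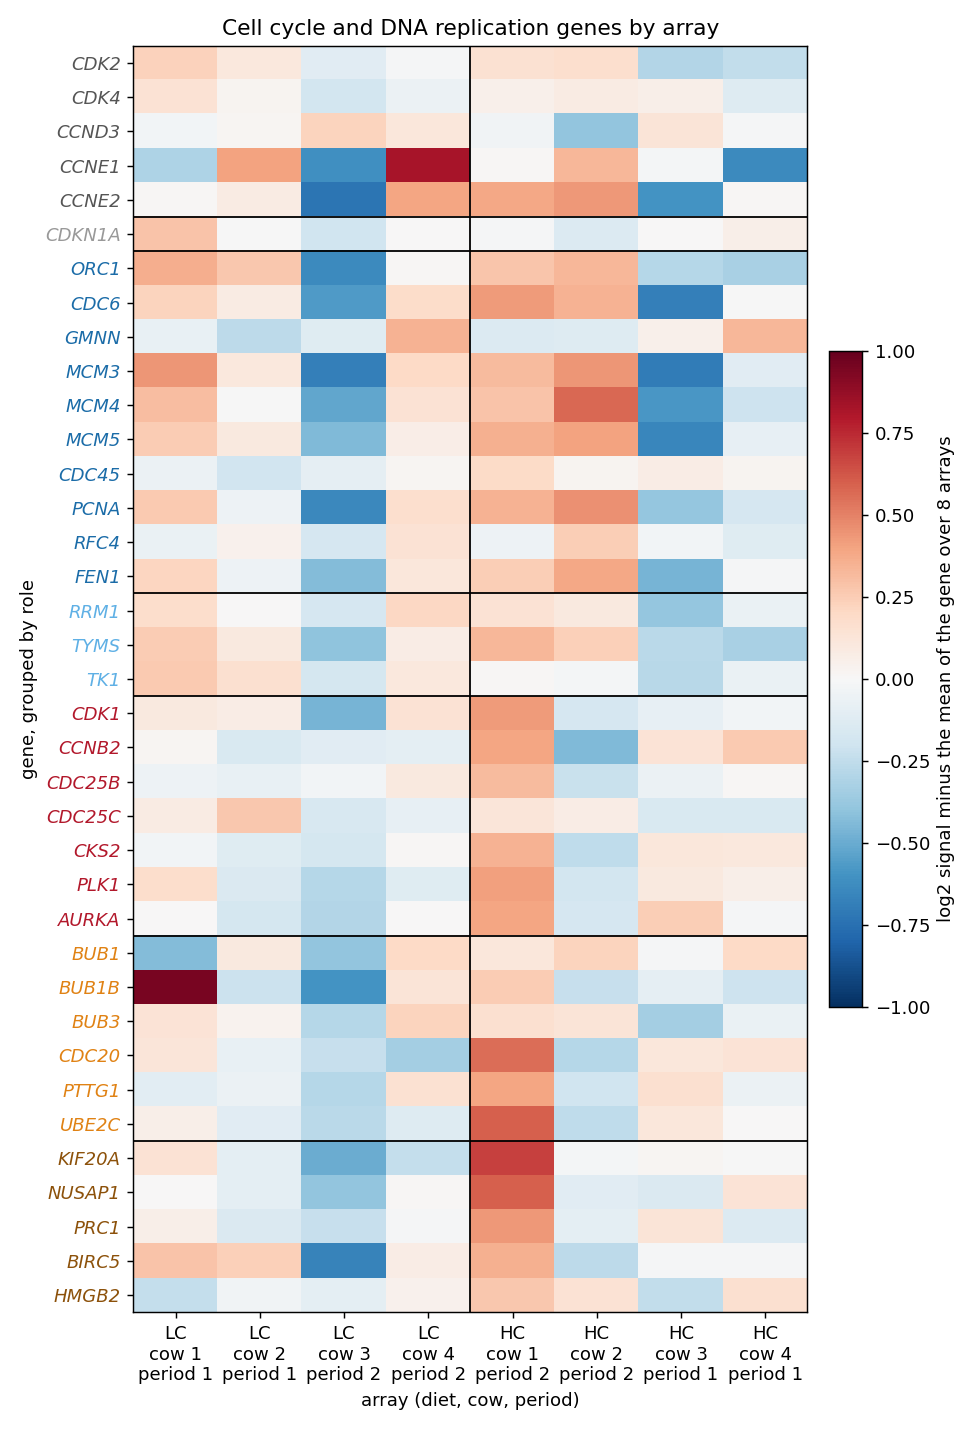
Log2 signal of the 37 measured genes on each of the 8 arrays as the difference from the mean of the gene, with genes in rows grouped by role and LC arrays left of HC arrays. The array of LC cow 3 is below the mean of the gene in 36 of 37 genes, and the array of HC cow 1 is above it in all 18 mitotic genes at the bottom.

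None of the 37 genes reached an unadjusted P under 0.05 for diet either, beside 3.65% of all probes, and the adjusted P was 1 for each of them. The log2 difference (HC minus LC) ran from -0.17 for TK1 to 0.34 for KIF20A with a median of 0.04, and 25 of 37 differences were positive. The median over all probes was 0, with 50% positive. A P above the threshold does not show that the levels were the same, and the standard errors of 0.08 to 0.36 on the log2 scale set the precision.

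**Figure D2:**
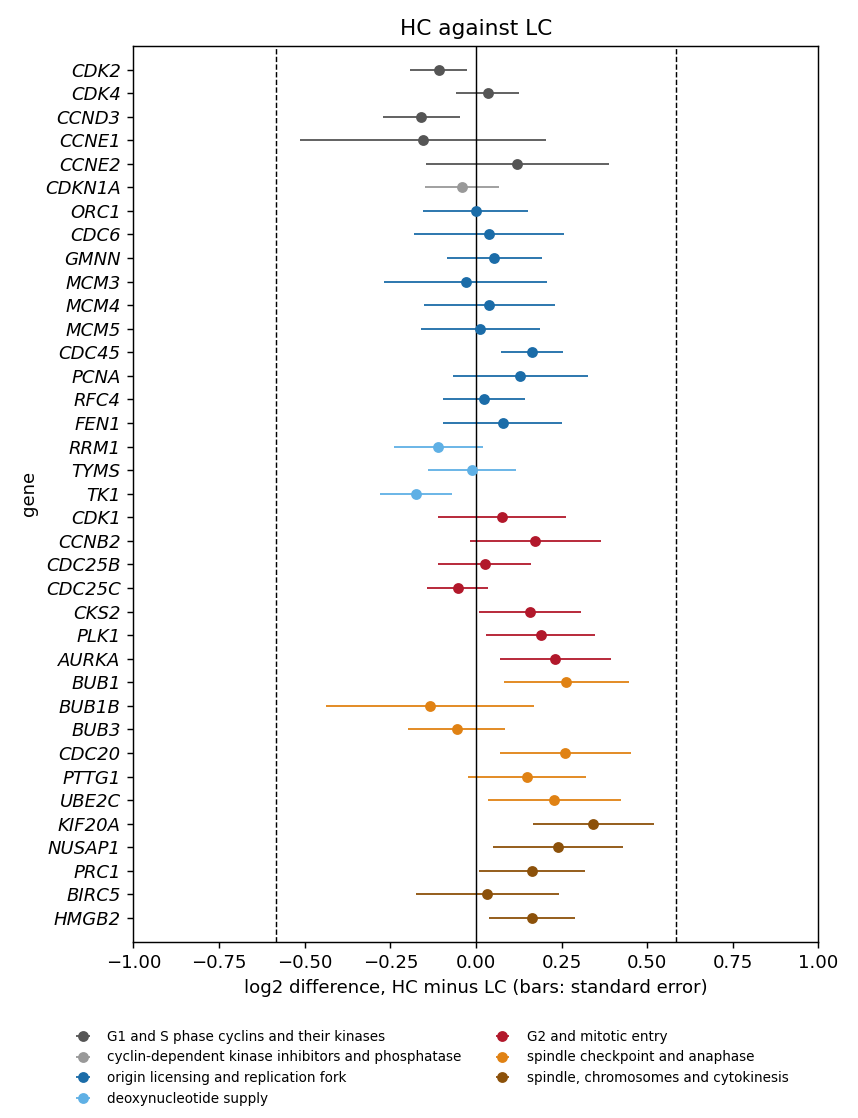
Log2 difference between HC and LC for each of the 37 genes (points) with its standard error from limma (bars), coloured by role, and the fold of 1.5 as dashed lines. No point lies beyond the dashed lines, and 15 of the 18 mitotic genes lie to the right of 0.

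Among the G1 and S phase cyclins and kinases, 5 of 8 genes were measured and 2 of the 5 differences were positive. CDK2, the kinase partner of cyclins E and A, read 10.05, 9.93, 9.71 and 9.81 on LC in cows 1 to 4 and 9.97, 9.99, 9.53 and 9.58 on HC. Cow 2 alone was higher on HC, and the difference was -0.11 ± 0.08 (SE). CDK4, the kinase of D cyclins, differed by 0.03 ± 0.09 (SE) with the groups between 10.71 and 11.04. CCND3 (cyclin D3) read 11.68, 11.73, 11.93 and 11.82 on LC and 11.67, 11.31, 11.83 and 11.70 on HC. It was lower on HC in 4 of 4 cows, with a difference of -0.16 ± 0.11 (SE), and 4.98% of all probes were lower on HC in every cow. CCNE2 (cyclin E2) differed by 0.12 ± 0.27 (SE). CCNE1 (cyclin E1) was well above background on 3 arrays of each diet and differed by -0.15 ± 0.36 (SE), the widest error of the list.

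CDKN1A (p21), which restrains cyclin-dependent kinases and is also raised in differentiating keratinocytes, was the 1 measured inhibitor of 3. Its log2 signal was 14.34, 14.06, 13.86 and 14.06 on LC and 14.05, 13.92, 14.07 and 14.12 on HC. The HC arrays lay within the LC arrays, and the difference was -0.04 ± 0.11 (SE).

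Of the origin and replication fork genes 10 of 16 were measured. Their diet differences were between -0.03 and 0.16 with a median of 0.04, and 8 of 10 were positive. Without the array of LC cow 3, 1 of 10 was positive with a median of -0.09, and without that of HC cow 4, 4 of 10 were positive with a median of -0.03. Leaving out any other single array gave a median of 0.005 to 0.19 with 6 to 10 of 10 positive, highest without the array of LC cow 4. CDC45, a subunit of the replicative helicase, read 9.32, 9.18, 9.29 and 9.39 on LC and 9.57, 9.41, 9.45 and 9.40 on HC. It was the single gene of the 37 whose diets did not overlap, beside 1.6% of all probes, and each cow was higher on HC, by 0.25, 0.22, 0.16 and 0.01. The difference was 0.16 ± 0.09 (SE), a 1.12-fold level. It had P = 0.122 in limma and P = 0.0286 in the exact two-sided permutation test over 4 arrays against 4. That permutation test does not pair the arrays of a cow. Its P is the smallest that 4 arrays against 4 allow without pairing, and is unadjusted over the 37 genes. With cow as a random block in place of the fixed design, the unadjusted limma P of CDC45 was 0.0476 with an adjusted P of 0.677.

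The other origin and fork genes differed by at most 0.13 between the diets. ORC1, the largest subunit of the origin recognition complex, differed by 0.00 ± 0.15 (SE) and CDC6, which loads the helicase with it, by 0.04 ± 0.22 (SE). GMNN (geminin), the inhibitor of licensing, differed by 0.05 ± 0.14 (SE). The helicase subunits MCM3, MCM4 and MCM5 differed by -0.03, 0.04 and 0.01. At the fork, PCNA (the sliding clamp) differed by 0.13 ± 0.20 (SE), RFC4 (clamp loader) by 0.02 ± 0.12 (SE) and FEN1 (the flap nuclease of Okazaki fragments) by 0.08 ± 0.17 (SE).

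All 3 measured genes of deoxynucleotide supply had negative differences. TK1, the thymidine kinase of S phase, read 13.20, 13.09, 12.76 and 13.04 on LC and 12.95, 12.92, 12.66 and 12.87 on HC. It was lower on HC in 4 of 4 cows, by 0.25, 0.17, 0.10 and 0.17 in size, although the groups overlapped, and the difference was -0.17 ± 0.11 (SE). RRM1, the large subunit of ribonucleotide reductase, differed by -0.11 ± 0.13 (SE) and TYMS (thymidylate synthase) by -0.01 ± 0.13 (SE).

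In the mitotic roles 18 of 27 genes were measured, and 15 of the 18 diet differences were positive with a median of 0.16. KIF20A, a kinesin of the central spindle, had the largest of the list. It read 8.26, 8.01, 7.62 and 7.87 on LC and 8.80, 8.09, 8.13 and 8.11 on HC, was higher on HC in 4 of 4 cows and overlapped between the diets. The difference was 0.34 ± 0.18 (SE), a 1.27-fold level. The exact two-sided permutation test over 4 arrays against 4, which does not pair the arrays of a cow, gave P = 0.2. The unadjusted limma P of KIF20A, 0.0983, was the smallest of the list. With cow as a fixed block it was the single gene of the list with an unadjusted limma P under 0.05 (0.0442 with period in the fit), and its adjusted P was 0.843. CDC45 and KIF20A were the 2 genes higher on HC in every cow, which held for 6% of all probes.

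CDC20, the activator of the anaphase-promoting complex, read 8.93, 8.73, 8.58 and 8.47 on LC and 9.36, 8.52, 8.92 and 8.94 on HC. UBE2C, the ubiquitin-conjugating enzyme of the same complex, read 9.17, 9.00, 8.84 and 8.98 on LC and 9.71, 8.86, 9.22 and 9.12 on HC. Both were higher on HC in cows 1, 3 and 4 and lower in cow 2. Their differences were 0.26 ± 0.19 (SE) and 0.23 ± 0.19 (SE). CCNB2 (cyclin B2) had the same pattern, with differences by cow of 0.38, -0.29, 0.25 and 0.36, and so did CKS2, a subunit that binds cyclin-dependent kinases, with 0.38, -0.13, 0.29 and 0.10. AURKA and PLK1, kinases of the centrosome and of mitotic entry, differed by 0.23 ± 0.16 (SE) and 0.19 ± 0.16 (SE).

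CDK1, the main mitotic kinase, read 8.05, 8.02, 7.48 and 8.09 on LC and 8.38, 7.78, 7.86 and 7.92 on HC. It was higher on HC in cows 1 and 3 and lower in cows 2 and 4, and its difference was 0.08 ± 0.19 (SE). The phosphatases that activate CDK1 differed by 0.03 ± 0.14 (SE) for CDC25B and by -0.05 ± 0.09 (SE) for CDC25C. Of the checkpoint kinases, BUB1 differed by 0.26 ± 0.18 (SE) and BUB1B by -0.13 ± 0.30 (SE), and their partner BUB3 by -0.06 ± 0.14 (SE). PTTG1 (securin) differed by 0.15 ± 0.17 (SE).

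NUSAP1, which bundles spindle microtubules, differed by 0.24 ± 0.19 (SE), PRC1, which crosslinks them in the midzone, by 0.16 ± 0.15 (SE), and BIRC5 (survivin), of the chromosomal passenger complex, by 0.03 ± 0.21 (SE). HMGB2, a chromatin protein of dividing cells, differed by 0.16 ± 0.12 (SE). PRC1 was the only gene of the list with a dimmer probe as well, which differed by -0.35 between the diets, the opposite sign to the brightest probe.

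By cow from 1 to 4, the mean over the 18 mitotic genes differed by 0.31, -0.09, 0.30 and 0.02 (HC minus LC). Without both arrays of cow 1 the positive median of the mitotic genes was 0.05 with 12 of 18 positive. Without the array of HC cow 1 alone it was 0.01 with 11 of 18 positive. Leaving out any other single array gave a median of 0.11 to 0.30 with 12 to 17 of 18 positive, highest without the array of HC cow 2. In the latter fit 8 genes reached an unadjusted P under 0.05, all of them mitotic, with a smallest adjusted P of 0.826. These were CCNB2, CKS2, PLK1, AURKA, CDC20, UBE2C, KIF20A and NUSAP1. The share of all probes under that P is not given for this fit, so the 8 genes cannot be set against it. No gene of the list reached that P when any other single array was left out. Without the array of HC cow 2 no gene of the list passed the call. That fit called 391 of all 21475 probes for diet, against 198 with all 8 arrays. The array of HC cow 1 was the highest of the 8 arrays for 14 of the 18 mitotic genes, beside 11.9% of all probes. The 18 genes lay on average 0.38 above the mean of the gene on that array and between -0.30 and 0.07 on the 7 others. Among the markers, the mean of 11 leukocyte genes was 7.40 on the same array and 7.05 to 7.27 on the others. There 7 of the 11 were above the mean of the gene and 4 below. Only 8 of the 11 were well above background on all 8 arrays. The mean of the basal squamous markers was 10.59, the lowest of the 8 arrays, with 5 of 7 below the mean of the gene. The mean of 4 erythrocyte genes was 7.08 on that array and 5.99 to 6.89 on the others. All 4 were above the mean of the gene there, and the array was the highest of the 8 for 1 of them. The means of the suprabasal squamous, stroma and endothelial markers on that array were within the range of the others. The part of these markers in the mitotic values was not tested.

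**Figure D3:**
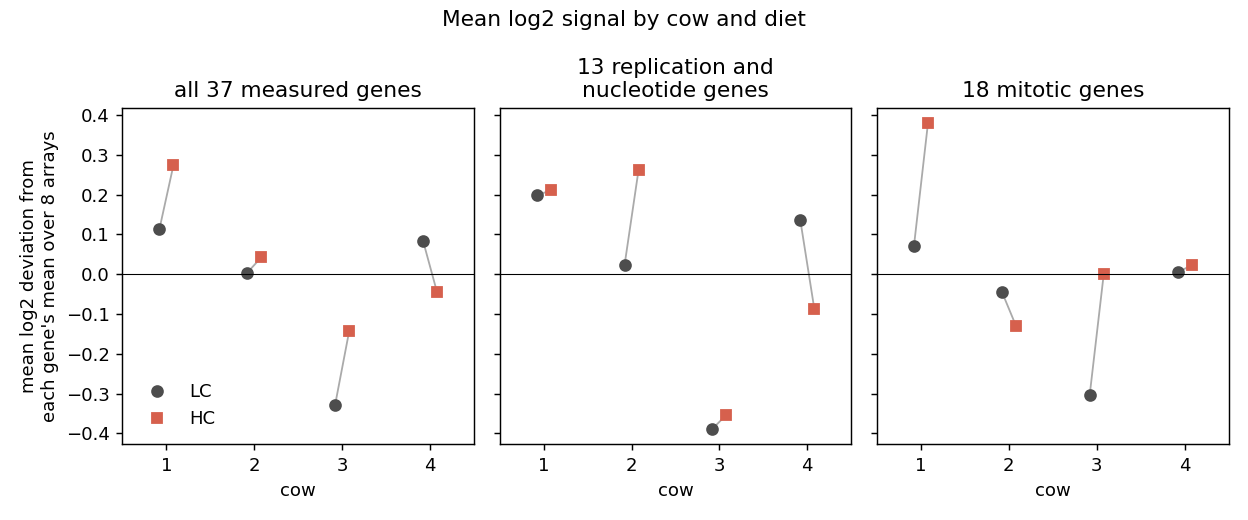
Mean log2 signal, as the deviation from the mean of each gene over 8 arrays, for all 37 genes, the 13 replication and nucleotide genes and the 18 mitotic genes, with LC and HC of each cow joined by a line. In the replication and nucleotide genes cow 3 is at -0.39 on LC and -0.35 on HC, and in the mitotic genes the HC array of cow 1 is at 0.38.

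By period, none of the 37 genes passed the call, beside 3.86% of all probes, and none had an unadjusted P under 0.05, beside 12.3% of all probes. The differences (period 2 minus period 1) ran from -0.25 for BIRC5 to 0.28 for CCNE1, with a median of 0.05 over the 37 genes and of 0.02 over all probes. The smallest adjusted P was 0.606. Without both arrays of cow 3, CCNE1 passed the call at 0.79 with an adjusted P of 0.348. That fit called 1177 of all 21475 probes for period, against 828 with all 8 arrays. CCNE1 was well above background on 6 of the 8 arrays.

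The interaction of diet and period in this crossover compares cows 1 and 2 with cows 3 and 4, so it also compares the order in which the diets were fed. The list was not spread evenly here: 31 of 37 differences were higher in cows 1 and 2, with a median of 0.21, where 49.2% of all probes were higher with a median near 0. Of the 37 genes 2 passed the call, beside 2.93% of all probes, and 9 had an unadjusted P under 0.05, beside 10.2% of all probes. All 9 were higher in cows 1 and 2, a direction held by 5% of all probes at that threshold. No adjusted P was under 0.05, and the smallest was 0.359.

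The 2 called genes were ORC1 and MCM3. ORC1 (NM_001014918) read 7.10 on LC and 7.01 on HC in cow 1 and 7.004 and 7.07 in cow 2, against 6.10 and 6.45 in cow 3 and 6.74 and 6.41 in cow 4. The arrays of the 2 pairs of cows did not overlap, and the difference was 0.62 ± 0.15 (SE), a 1.54-fold level, with an unadjusted limma P of 0.00609 and an adjusted P of 0.359. MCM3 (NM_001013586) read 9.56 and 9.44 in cow 1, 9.22 and 9.56 in cow 2, 8.43 and 8.41 in cow 3 and 9.32 and 9.00 in cow 4. Here cow 3 alone was low and cow 4 overlapped with cow 2, and the difference was 0.65 ± 0.24 (SE) with an unadjusted limma P of 0.0319 and an adjusted P of 0.459. An exact test over 4 cows, 2 against 2, cannot give a P below 0.333.

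MCM4 read 11.61 and 11.59 in cow 1, 11.30 and 11.88 in cow 2, 10.78 and 10.72 in cow 3 and 11.44 and 11.10 in cow 4, a difference of 0.58 ± 0.19 (SE) that lay just under the fold of 1.5. MCM5 read 12.37 and 12.47 in cow 1, 12.22 and 12.52 in cow 2, 11.68 and 11.47 in cow 3 and 12.18 and 12.04 in cow 4, a difference of 0.55 ± 0.17 (SE). Cow 3 was the lowest on both diets for both genes, and only for MCM5 did the pairs of cows not overlap. CDC6 and PCNA differed by 0.54 ± 0.22 (SE) and 0.51 ± 0.20 (SE), with adjusted P of 0.486 and 0.469.

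Outside the origin and fork genes, CDK2 differed by 0.33 ± 0.08 (SE), TYMS by 0.46 ± 0.13 (SE) and CDC25C by 0.27 ± 0.09 (SE), with adjusted P of 0.361, 0.385 and 0.429. With ORC1 and MCM5 these 3 made up the 5 genes whose pairs of cows did not overlap, beside 5.63% of all probes. GMNN, the inhibitor of licensing, had the opposite sign at -0.31 ± 0.14 (SE) and an unadjusted limma P of 0.0681. The 18 mitotic genes differed by a median of 0.13, and CDC25C was the only one of them with an unadjusted P under 0.05. That median was 0.005 with 9 of 18 positive without the array of HC cow 1, and -0.05 with 7 of 18 positive without both arrays of cow 1.

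**Figure D4:**
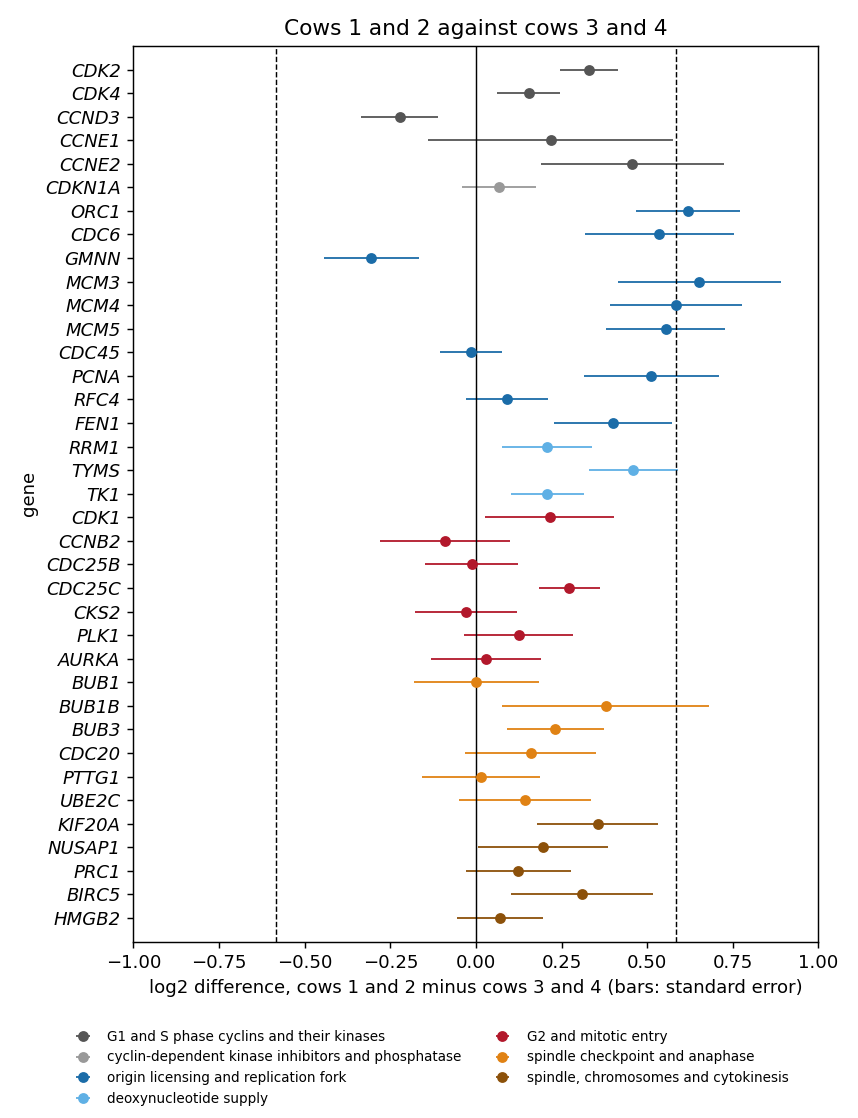
Log2 difference between cows 1 and 2 and cows 3 and 4 for each of the 37 genes (points) with its standard error from limma (bars), coloured by role, and the fold of 1.5 as dashed lines. ORC1 and MCM3 lie beyond the dashed line on the right and MCM4 just short of it.

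That fit takes both arrays of a cow as separate replicates. Fitted on the mean of each cow, ORC1, CDK2, TYMS and MCM4 had an unadjusted P under 0.05, 4 of 37 beside 5.96% of all probes, and ORC1 alone passed the call, beside 2.48% of all probes. Their P values were 0.0127, 0.0374, 0.0251 and 0.0463, each with an adjusted P of 0.817. Without both arrays of cow 3 no gene of the list passed the call, and the median of the origin and replication fork genes was 0.22 in place of 0.52. In that fit ORC1 differed by 0.47 and MCM3 by 0.28. Without both arrays of cow 1 none passed it either, and none had an unadjusted P under 0.05, although ORC1 differed by 0.61, MCM3 by 0.60 and the origin and fork genes by a median of 0.47. Without both arrays of cow 4 there were 8 calls in the list, in a fit that called 1444 of all 21475 probes, against 813 without cow 3 and 863 without cow 1.

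The difference was therefore followed cow by cow. Cow 3 was the lowest of the 4 cows on both diets in 12 of 37 genes, beside 10.6% of all probes, in 8 of the 13 genes of replication and nucleotide supply and in 2 of the 18 mitotic genes. Among 34 mitosis genes outside the list the same held for 11. The 13 replication and nucleotide genes lay on average at -0.39 from the mean of the gene on LC and at -0.35 on HC in cow 3, while the 6 other arrays lay between -0.09 and 0.26. The mitotic genes of cow 3 lay at -0.30 on LC and 0.00 on HC. A test among the 4 cows with diet and period in the fit (limma, F test) gave an unadjusted P under 0.05 for 9 of 37 genes, beside 16.3% of all probes, and for 8 of the 10 origin and replication fork genes. These 8 were ORC1, CDC6, GMNN, MCM3, MCM4, MCM5, PCNA and FEN1, and the other gene was CCNE2. Of them, GMNN was not low in cow 3 but high in cow 4, with means over both diets of 8.63, 8.54, 8.70 and 9.07 in cows 1 to 4. No adjusted P was under 0.05, and the smallest were 0.153 for CDC6 and 0.177 for MCM5.

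**Figure D5:**
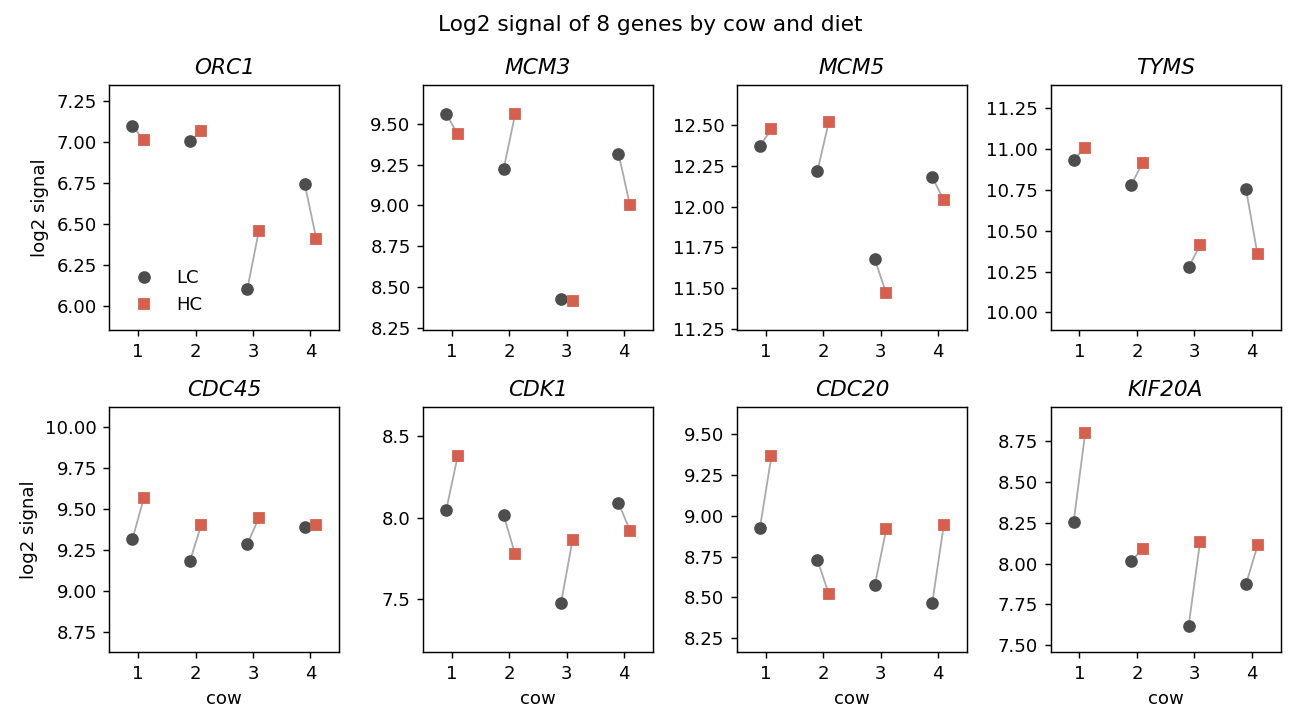
Log2 signal of 8 genes on each array by cow, LC as circles and HC as squares, joined within a cow, with all panels spanning 1.5 log2 units. ORC1, MCM3, MCM5 and TYMS differ between cows more than between diets, and CDC45 and KIF20A are higher on HC in 4 of 4 cows.

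Among the markers of the epithelium, the suprabasal mean was lowest in cow 3 on both diets. Of the 8 suprabasal genes, cow 3 was the lowest on both diets in 3, beside 10.6% of all probes. The mean over 8 suprabasal squamous markers was 13.63 on LC and 13.81 on HC in cow 3, and 14.13 to 14.45 on the 6 other arrays. Between the pairs of cows, TGM3, a transglutaminase of the cornified envelope, and CNFN (cornifelin) were higher in cows 1 and 2 by 1.09 and 0.72. Both passed the call, and they were 2 of the 8 genes, beside 2.93% of all probes. DSG1, a desmosomal cadherin, had a difference of the opposite sign, at -1.11 with an unadjusted limma P of 0.227. The mean over 7 basal squamous markers was 11.13 on LC and 10.97 on HC in cow 3 and 10.59 to 10.95 on the others. Of these 7 genes, 6 were well above background on all 8 arrays. Between the pairs of cows 1 of 7 was under an unadjusted limma P of 0.05 and none was called. The array of LC cow 3 had the lowest share of probes well above background and the lowest median intensity before normalization, 92.1. On the array of HC cow 3 the share was 79.8% and the median intensity 114.9, both within the range of the others. The part of these markers and of the signal in the replication values was not tested.

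Replication genes outside the list were read in the same way. Of 36 measured, 10 had an unadjusted limma P under 0.05 between the pairs of cows. All 10 were higher in cows 1 and 2, beside 5% of all probes in that direction. The call was passed by 4, beside 2.93% of all probes. CHAF1A (chromatin assembly at the fork) was 0.79 ± 0.25 (SE) higher, UHRF1 (maintenance of DNA methylation) 0.78 ± 0.16 (SE) and CDCA7 (chromatin remodelling) 0.73 ± 0.21 (SE), and the fourth call, CLSPN, was well above background on no array. Fitted on the mean of each cow, 5 of the 36 had an unadjusted limma P under 0.05, beside 5.96% of all probes, with a smallest adjusted P of 0.817. Cow 3 was the lowest on both diets in 18 of the 36, beside 10.6% of all probes. By diet their median was -0.01, and CLSPN was the 1 call, at 0.88 higher on HC with an adjusted P of 1. GINS4, a helicase cofactor, was lower in period 2 with a difference of -0.71 and passed that call.

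Mitosis genes outside the list numbered 34, and none was called in any of the 3 comparisons. By diet, 28 of the 34 differences were positive with a median of 0.11. The array of HC cow 1 was the highest of the 8 for 22 of the 34, beside 11.9% of all probes. Of 20 cell cycle regulators and 12 subunits of the anaphase-promoting complex, none was called by diet or by pair of cows, and their diet medians were -0.04 and 0.00. Among 12 stroma, 11 leukocyte, 5 endothelial and 4 erythrocyte markers none was called by diet, and LYZ (lysozyme) was called between the pairs of cows, 0.69 higher in cows 1 and 2.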

How the data were processed

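RNA of rumen papillae was hybridised to single-colour Agilent bovine oligonucleotide arrays, 8 in all. For each array the authors deposited Feature Extraction 10.7.3.1 output, in which every spot has a background-subtracted intensity with no normalization between arrays, and the authors also deposited a quantile-normalized log2 table, used as an alternative. Per the file headers the probe annotation is HGSC Btau_3.1, whereas symbols came from the RefSeq table of ARS-UCD2.0, so no coordinates are given. Of 10176 probes with a RefSeq accession, 8297 were named. Control spots and outlier spots were left out, spots of a probe were averaged, and log2 values were quantile-normalized.

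Tests used limma 3.58.1 (R 4.3.3) with diet, period and their interaction over all 21475 probes, Benjamini-Hochberg adjustment over all of them, and the call of the study's methods, a fold of at least 1.5 with an unadjusted P under 0.05. The script was tested on simulated data. Values are log2 signals, fold changes are within a probe, and levels of different probes are not compared. The number of arrays limits the precision. Same-numbered arrays come from the same cow per the labels, and deviations from the group means correlated within cows 1 to 4 by 0.285, 0.298, 0.467 and 0.113 across probes. Between arrays of different cows the correlation was -0.237 to 0.185. The highest, of LC cow 1 with HC cow 4, was above the 0.113 within cow 4.

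The members and lists were chosen with earlier results of these data known. Named were all list members by role and, of the other lists (replication, mitosis, regulators, anaphase-promoting complex, and markers of basal and suprabasal epithelium, stroma, leukocytes, endothelium and erythrocytes), up to 5 genes per direction that were called and well above background on all 8 arrays; CLSPN and the markers used for the tissue check were named beside this rule. Alternatives were normexp (offset 50, on the median signal, as mean signals are not used here), scaling to the 75th percentile, the deposited table, other model terms, cow as a block, a general linear model, robust moderation, a filter at 4 arrays, all probes of a gene, each period alone and leaving out each array; leaving out each cow, the test among cows and the fit on cow means were added after seeing the data. Promoter and protein sequences were planned and are not analysed here, nor are the blood, qRT-PCR and cell culture measurements.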

Additional observations from a re-analysis of the deposited data

Results flagged for a closer look

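In each diet the 4 arrays were examined for a single array far from the others, in 80 groups of measured genes and means, and chance marks about 1 in 20 such groups. There were 2 such groups. CDK1 on LC was lowest on the array of cow 3, at 7.48 against 8.02 to 8.09 on the others, with a gap of 0.878 of the range, above Dixon's limit for 4 arrays. KIF20A on HC was highest on the array of cow 1, at 8.80 against 8.09 to 8.13, with a gap of 0.936 of the range.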

How the results depend on the processing

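No gene of the list passed the diet call under any of the settings run. With cow as a replicate block, which pairs the arrays of a cow, 1 gene had an unadjusted P under 0.05 for diet both with and without period (KIF20A), 1 with cow as a random block (CDC45), and 1 under normexp (CDK2). Leaving out each array gave 0 to 8 such genes (8 without HC cow 2), and leaving out each cow 0 to 3 (3 without cow 2). The diet median of 0.04 was 0.26 within period 2 and -0.12 within period 1, and -0.07 to 0.20 over the arrays left out. For period, normexp gave 1 gene with an unadjusted P under 0.05 (CDK2), each array left out 0 to 2, and each cow left out 0 to 2 with 0 to 1 calls. For the pairs of cows, the 2 calls became 1 under normexp (MCM5), 1 in the general linear model without moderation and 1 on the mean of each cow, 0 to 7 over the arrays left out (0 without LC cow 3, 7 without LC cow 4) and 0 to 8 over the cows left out. The 9 genes with an unadjusted P under 0.05 became 5 in the general linear model, 4 on the mean of each cow, 4 to 14 over the arrays left out and 0 to 13 over the cows. Fewer arrays entered the fits that left some out, and the cause of the other changes was not tested. Under the other settings counts stayed within 1.5 times, and the median over all members for the pairs of cows stayed positive, from 0.09 to 0.33. Dim signal limits CCNE1, which was not well above background on 2 arrays.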
